A study of Mus musculus with 4 samples.

Results

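The genes described here encode the factors that start, elongate and end protein synthesis, and their direct regulators. They are the protein-coding genes of GENCODE M21 (mouse build GRCm38) on chromosomes 1 to 19 whose symbol starts with Eif or Eef and a digit, together with Pabpc1, Pabpc4, Etf1 and Gspt1. There were 69 such genes among 20807 protein-coding genes on these chromosomes, and 3 more on other chromosomes were left out. Symbols alone decided membership, so the set also holds eIF2 alpha kinases, eIF4E-binding proteins, the kinase Eef2k and 5 methyltransferase genes. It was split into 14 complexes or classes. The study mapped RNA bound by IGF2BP2, YTHDF2 or YTHDC1 in mouse bone marrow cells. The labels describe these as lin-ckit+ cells and name them LIC, which they do not spell out. The cells were cultured with m-IL3, m-IL6 and m-SCF, and RNA and protein were crosslinked with UV light before immunoprecipitation. Genotype, strain, age and number of animals are not stated in the labels. Each antibody has 1 library and a further library is the input, which was not used here as a track, so no value below has a replicate error and no test between readers was possible.

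Translation initiation joins the small ribosomal subunit, the initiator tRNA carried by eIF2 and a capped mRNA. eIF4F binds the cap, eIF3 bridges the mRNA and the small subunit, eIF2B recharges eIF2 with GTP, and eIF5B promotes subunit joining. eEF1 delivers aminoacyl-tRNA to the ribosome, eEF2 moves the ribosome along, and eRF1 and eRF3 release the finished protein. IGF2BP2, YTHDF2 and YTHDC1 are known as readers of m6A, a methyl mark on adenosines of RNA that is often written in the motif GGAC. IGF2BP2 is known for stabilising mRNA, YTHDF2 for promoting its decay, and YTHDC1 for acting in the nucleus.

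Windows from places where peaks of all 3 readers overlapped in these genes, and 1 window at an IGF2BP2 summit, are given first as sequence, to show how they differ in base composition and in the motif GGAC. Each line gives the spliced coding strand of the GENCODE M21 transcript, 5′ to 3′, from 50 nt before to 50 nt after a summit (the base with the highest pileup in a peak), with GGAC in capitals. All 7 windows are coding sequence. The first window is at the YTHDF2 summit in exon 19 of Eif3a (chr19:60766387-60766487, GRCm38, minus strand), where the IGF2BP2 peak reaches but has its summit elsewhere in the exon, and the second from exon 21 of the same gene (chr19:60763105-60763205, minus strand). The Pabpc1 window joins exons 5 and 6 (chr15:36600973-36601380, minus strand), and the Eef1b2 window joins exons 3 and 4 (chr1:63178479-63178845, plus strand). The Eif5b window is from exon 4 (chr1:38019323-38019423, plus strand). The Eef2 window is at an IGF2BP2 summit in exon 7 (chr10:81179557-81179657, plus strand), and is shown because it holds GGAC 3 times. The YTHDC1 peak nearest to it, in exon 5, does not reach this window. The Eef1a1 window is from exon 7 (chr9:78478974-78479074, minus strand), and is shown because it has neither feature.
Eif3a, exon 19: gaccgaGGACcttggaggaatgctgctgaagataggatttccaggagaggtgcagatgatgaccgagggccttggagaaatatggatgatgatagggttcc
Eif3a, exon 21: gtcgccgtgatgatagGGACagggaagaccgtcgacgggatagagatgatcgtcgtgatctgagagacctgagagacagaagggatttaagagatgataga
Pabpc1, exons 5 and 6: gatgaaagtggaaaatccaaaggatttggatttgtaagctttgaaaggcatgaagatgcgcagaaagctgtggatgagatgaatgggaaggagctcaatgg
Eef1b2, exons 3 and 4: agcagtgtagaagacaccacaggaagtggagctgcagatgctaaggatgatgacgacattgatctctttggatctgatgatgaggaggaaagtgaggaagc
Eif5b, exon 4: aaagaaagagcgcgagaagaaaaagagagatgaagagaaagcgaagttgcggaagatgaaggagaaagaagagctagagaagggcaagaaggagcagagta
Eef2, exon 7: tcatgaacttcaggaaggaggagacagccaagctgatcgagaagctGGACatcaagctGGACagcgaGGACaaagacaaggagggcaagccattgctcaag
Eef1a1, exon 7: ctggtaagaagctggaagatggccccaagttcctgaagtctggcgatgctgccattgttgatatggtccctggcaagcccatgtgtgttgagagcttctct
A and G made up 64.4% and 68.3% of the Eif3a windows, 69.3% of the Pabpc1 window and 66.3% of the Eef1b2 window. They made up 87.1% of the Eif5b window, which repeats GAA 12 times. The Eef2 window had 67.3% and the Eef1a1 window 49.5%. The motif GGAC was present once in each of the Eif3a windows, 3 times in Eef2 and not at all in the Pabpc1, Eef1b2, Eif5b and Eef1a1 windows.

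Peaks were frequent in the factor genes. IGF2BP2 had a summit in 33 of 69 genes (47.8%, exact binomial 95% interval 35.6 to 60.2), against 13.2% of all protein-coding genes. YTHDF2 had one in 28 genes (40.6%, 28.9 to 53.1), against 7.46%, and YTHDC1 in 39 genes (56.5%, 44.0 to 68.4), against 20.6%. All 3 lists had a summit in 23 genes (33.3%, 22.4 to 45.7), against 5.24% of all genes, and 43 genes (62.3%, 49.8 to 73.7) had a summit of any reader, against 24.5%. These intervals, and all others here, cover counting error only. Gene length was similar in both sets, with a median of 17425 bp in the factor genes and 17629 bp in all genes, and a median coding sequence (CDS) of 1107 nt and 1182 nt. Transcript levels are not in the files used here, and their part in which genes had a peak was not tested.

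The peaks in factor genes were also more numerous per gene and stronger than over all genes. There were 102 IGF2BP2 peaks, 68 YTHDF2 peaks and 97 YTHDC1 peaks, or 3.09, 2.43 and 2.49 per gene with a peak, against 2.14, 1.54 and 1.87 over all genes. Fold, the authors' ratio of the pileup at the summit to the local background, had a median of 7.40, 7.43 and 8.77 in the factor genes for IGF2BP2, YTHDF2 and YTHDC1, against 5.92, 5.47 and 6.03 over all genes. The median pileup, in overlapping fragments, was 8, 8 and 11, against 5, 5 and 6. Peaks with a pileup of 3 or less made up 15.7%, 13.2% and 5.15% of the peaks in factor genes, against 28.2%, 34.4% and 22.6%. Without Eif3a, the gene with the most peaks in each list, the median folds were 7.13, 6.40 and 8.21. The 5 genes with the most peaks held 39.2%, 42.6% and 32.0% of the peaks. Genes with a longer CDS had more peaks, with a Spearman rank correlation over 68 genes of 0.62 (IGF2BP2), 0.45 (YTHDF2) and 0.43 (YTHDC1). That relation is a description across genes of the same libraries. The 23 genes in all 3 lists had a median CDS of 1741.5 nt and the 26 genes in none had 826.5 nt.

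**Figure D1:**
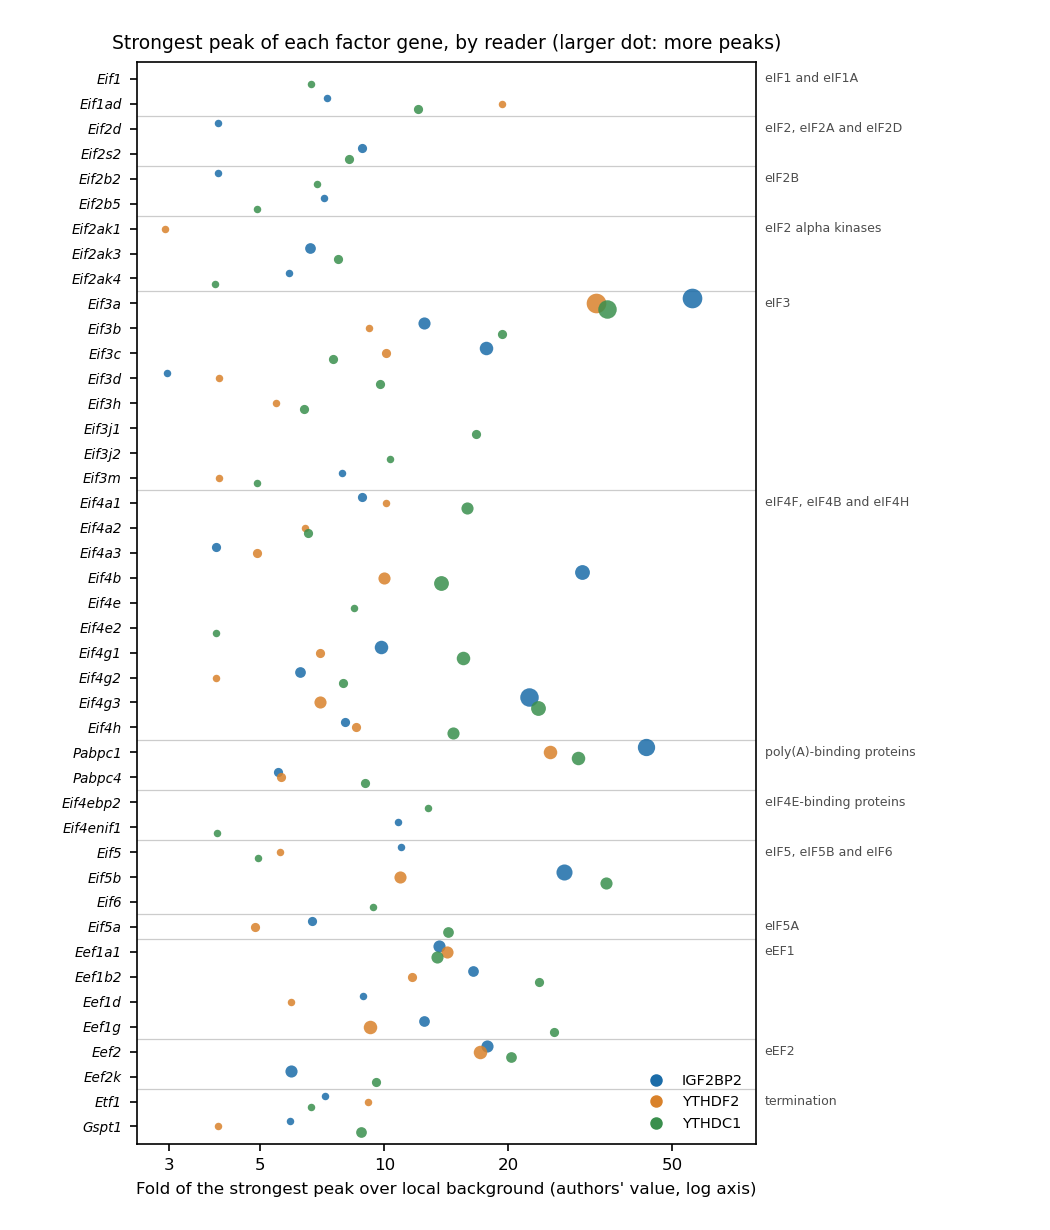
Fold of the strongest peak (log axis) of each of the 43 factor genes with a peak, by reader and grouped by complex, with larger dots for genes with more peaks. Eif3a and Pabpc1 lead for IGF2BP2 with 56.0 and 43.2. A YTHDC1 dot alone is shown for 7 genes, among them Eif1, Eif4e and Eif6. They are 10.1% of the factor genes, and 9.72% of all genes had YTHDC1 peaks alone.

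Eif3a, the largest subunit of eIF3, carried the peak with the highest fold of the set in each of the 3 lists. By pileup, the highest YTHDC1 peak was in Eif3b, with 123 against 72 in Eif3a. Eif3a had 10 IGF2BP2, 10 YTHDF2 and 9 YTHDC1 peaks, with highest folds of 56.0, 32.6 and 34.8. Among all genes with a peak, its highest fold ranked 13th of 2739 for IGF2BP2, 6th of 1553 for YTHDF2 and 91st of 4276 for YTHDC1. By number of peaks Eif3a ranked 43rd, 5th and 48th. Every IGF2BP2 and YTHDC1 summit lay in the CDS, as did 8 of 10 YTHDF2 summits. The first summit stood at 44.4% of the CDS in exon 12 of 22 and the last at 97.8% in exon 22, so the part of the CDS before exon 12 had none. The peaks formed 10 places, and 8 of these had peaks of all 3 readers. In exon 17 the summits stood at nt 2658, 2657 and 2657 of the CDS for IGF2BP2, YTHDF2 and YTHDC1, with pileups of 57, 19 and 51 and folds of 42.5, 15.5 and 34.8. In exon 21, whose window is printed above, the pileups were 96, 35 and 44 and the folds 56.0, 24.3 and 24.7, with the summits within 21 bp. In exon 12 the pileups were 69, 35 and 29 and the folds 37.8, 22.8 and 15.1. Exon 19 was the broadest place, with YTHDF2 and YTHDC1 summits at nt 3306 and 3261 (folds of 32.6 and 29.4) as well as summits of all 3 readers between nt 2800 and 2848 (41.8 for IGF2BP2, 28.3 for YTHDF2 and 16.8 for YTHDC1). An IGF2BP2 peak in exon 14, with a pileup of 7 and a fold of 7.47, overlapped no other list.

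**Figure D2:**
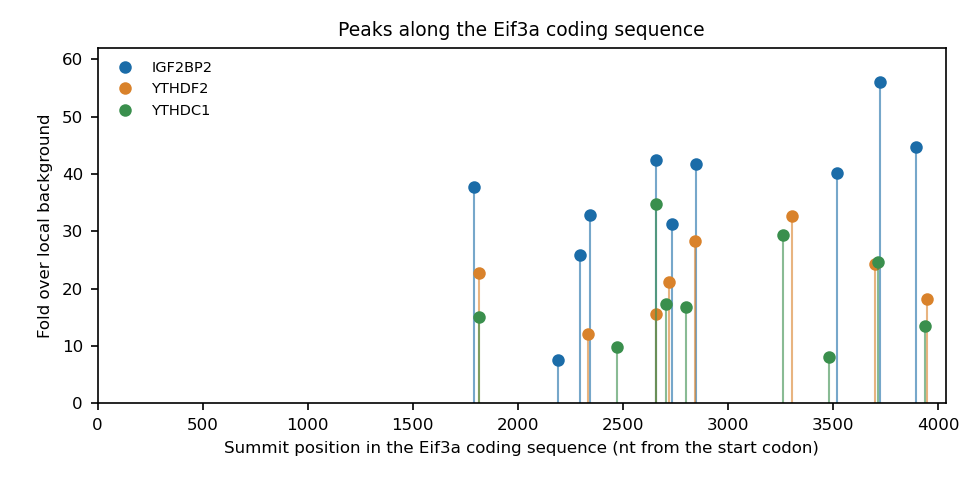
Fold of each peak with a CDS summit in Eif3a against the summit's distance from the start codon in nt, by reader. Summits of all 3 readers start at nt 1790 to 1815 and recur together up to nt 3947, with the highest fold, 56.0, in exon 21.

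The other eIF3 genes had fewer and mostly weaker peaks. Of the 14 genes, 5 had an IGF2BP2, 6 a YTHDF2 and 8 a YTHDC1 peak, and the 5 in all 3 lists were Eif3a, Eif3b, Eif3c, Eif3d and Eif3m. Eif3b, which encodes a scaffold subunit, had peaks of all 3 readers in exon 1 of 19, at nt 323 to 356 of the CDS. The pileups there were 54, 34 and 123 for IGF2BP2, YTHDF2 and YTHDC1. Folds of 11.0, 9.19 and 19.3 were low beside these pileups. The background computed from both values was 287, 252 and 287 times the lowest of the list. It restates the low folds in another form and was not measured separately. The highest IGF2BP2 fold of Eif3b, 12.5 with a pileup of 12, was in exon 5, where the other readers had no peak. Eif3c, a core subunit, had its strongest IGF2BP2 and YTHDF2 peaks in exon 7 of 21, with folds of 17.7 and 10.1, and a YTHDC1 peak of 7.52 with its summit within 13 bp of these. A further YTHDC1 peak in exon 4 of Eif3c had a pileup of 29 and a fold of 4.55. The core subunit gene Eif3m had peaks of 7.89, 3.96 and 4.91 within 34 bp in exon 2, and those of Eif3d in exon 7 had folds of 2.96, 3.96 and 3.93. In Eif3d, which encodes a subunit known in human to bind the cap itself, YTHDC1 had a stronger peak of 9.78 near the end of the CDS. Eif3m and Eif3d summits in these places also lay in Ccdc73 and Gm17638, and the lists give no strand. Eif3h had a YTHDF2 peak of 5.47 in exon 2 and 2 intronic YTHDC1 peaks. Eif3j1 and Eif3j2 encode the loosely bound subunit eIF3j and had YTHDC1 peaks alone, with pileups of 24 and 11 and folds of 16.7 and 10.3 at their CDS summits. The window of 50 nt to each side of either summit has an exact match in the transcript of the other gene, so reads from within these windows cannot be told apart. The subunit genes Eif3e, Eif3f, Eif3g, Eif3i, Eif3k and Eif3l had no peak.

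Peaks were found in 10 of the 12 genes of eIF4F and its partners, 7 of them for IGF2BP2, 8 for YTHDF2 and 9 for YTHDC1. Eif4b, whose product stimulates the helicase eIF4A, had 6, 4 and 6 peaks. In exon 8 of 15 its IGF2BP2 peak had a pileup of 33 and a fold of 30.3, with YTHDF2 and YTHDC1 peaks of 10.0 and 7.73 at the same place. In exon 13 the IGF2BP2 and YTHDC1 folds were 13.8 and 13.7, and the YTHDF2 fold was 4.94. Eif4g3, a paralog of the scaffold Eif4g1, had 9, 4 and 6 peaks, of which 8, 4 and 3 had a CDS summit and the others an intronic one. The strongest IGF2BP2 peak, 22.5, lay in exon 19 of 34 together with a YTHDF2 peak of 4.91, and YTHDC1 had none there. The strongest YTHDC1 peak, 23.6, lay in exon 11, where the folds of IGF2BP2 and YTHDF2 were 6.24 and 5.93. In exon 13 all 3 summits lay within 1 bp, with folds of 15.3, 6.97 and 15.4. Eif4g1 itself had 5, 2 and 5 peaks but no place with peaks of all 3 readers. Its YTHDC1 peaks in exon 9 and exon 28 of 32 had folds of 15.5 and 14.1, overlapped by an IGF2BP2 peak of 5.86 in exon 9 and a YTHDF2 peak of 6.97 in exon 28. Eif4g2, which has no annotated start codon in GENCODE M21, had IGF2BP2 and YTHDF2 CDS peaks with folds between 3.89 and 6.24, and 2 YTHDC1 peaks of 7.94 and 5.82 nearer the gene start.

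Eif4h, Eif4a1 and Eif4a2 differed from these in where their peaks lay. Eif4h, an eIF4A cofactor gene, had 2 peaks of each reader in its 3′ UTR. Summits 452, 464 and 474 nt after the stop codon had folds of 5.86, 8.52 and 14.7 for IGF2BP2, YTHDF2 and YTHDC1. The helicase genes Eif4a1 and Eif4a2 had summits inside small nucleolar RNA (snoRNA) genes in introns of their main transcripts. In Eif4a1 all 3 readers had a summit in the snoRNA gene Gm22988, within 2 bp, with pileups of 10, 14 and 28 and folds of 6.83, 10.1 and 15.9. YTHDC1 had another in Gm25835, with a pileup of 22 and a fold of 5.16. In Eif4a2, YTHDF2 and YTHDC1 had summits in Gm26447 with pileups of 34 and 55 and folds of 6.42 and 6.54, and YTHDC1 one in Gm24616 with 22 and 4.36. These accounted for every peak of Eif4a2. Eif4a1 had 1 CDS peak, of IGF2BP2 in exon 8, at 8.83. The factor genes hold 20 snoRNA genes in 10 genes, of which 4 had a summit. Summits inside snoRNA genes were 1 of 102, 2 of 68 and 4 of 97 in factor genes (0.98%, 2.94% and 4.12%), all in Eif4a1 and Eif4a2. Over all genes they made up 0.0815%, 0.277% and 0.270%. The intervals in factor genes were 0.0248 to 5.34, 0.358 to 10.2 and 1.13 to 10.2, so that of IGF2BP2 includes the share of all genes. Since these summits come from 4 snoRNA genes in Eif4a1 and Eif4a2 alone, they are not independent. No difference from all genes was tested for any reader. The background, computed as for Eif3b, was 400, 226 and 183 times the lowest of the list at Gm26447, Gm24616 and Gm25835. At Gm22988 it was 43.5 times. Eif4a3, a helicase of the exon junction complex, had 2 weak peaks each of IGF2BP2 and YTHDF2, with folds of at most 4.90. The cap-binding protein genes Eif4e and Eif4e2 had a single intronic YTHDC1 peak each, of 8.44 and 3.90, and Eif4e1b and Eif4e3 had none.

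Pabpc1 encodes the main cytoplasmic poly(A)-binding protein, which bridges the mRNA tail and eIF4G, and it had the next highest IGF2BP2 fold after Eif3a. It had 8, 5 and 5 peaks. At the end of exon 5 of 15, whose window is printed above, the pileups were 44, 25 and 30 and the folds 43.2, 25.2 and 29.4 for IGF2BP2, YTHDF2 and YTHDC1, with the summits within 9 bp. A neighbouring intronic place had folds of 23.3, 12.6 and 14.3 with the summits within 1 bp. The YTHDC1 peak with the highest fold, 29.6, had a pileup of 53 and lay in the 5′ UTR, 80 nt before the start codon, while the IGF2BP2 summit of that place was in the CDS of exon 1 with a fold of 11.0. The 5′ UTR of this gene is known in human for an A-rich stretch that its own product binds. The windows at the 5′ UTR summits were not rich in A. A and G together made up 29.7% of the YTHDC1 window and 27.7% of the YTHDF2 window. Whether the peaks reach the A-rich stretch was not tested. Pabpc4, a paralog, had weaker peaks, of 5.53, 5.62 and 8.97 in exon 5 of 14.

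The termination genes were in all 3 lists. Etf1, which encodes eRF1, had a single place near its start codon, with folds of 7.17, 9.14 and 6.63. IGF2BP2 and YTHDF2 summits there stood 14 and 3 nt before the start codon, and the YTHDC1 summit in the adjoining intron. Gspt1, which encodes the GTPase eRF3a, had peaks of 5.89, 3.94 and 8.77 in exon 4 of 15, where 2610020C07Rik overlaps it, and 2 further YTHDC1 peaks closer to the gene start.

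Among factors that select the start codon or carry the initiator tRNA, 2 of 4 genes of eIF1 and eIF1A had no peak. The same held for 2 of 4 genes of eIF2, eIF2A and eIF2D and 3 of 5 of eIF2B. Over all genes 75.5% had none. Eif1ad, a gene related to eIF1A by its domain, had a 3′ UTR place 187, 187 and 203 nt after the stop codon, with pileups of 8, 22 and 17 and folds of 7.24, 19.3 and 12.1 for IGF2BP2, YTHDF2 and YTHDC1. It had the second highest YTHDF2 fold outside Eif3a. Eif1, whose product guards start codon choice, had 1 YTHDC1 peak of 6.63, 73 nt before its start codon. Eif2s2, the beta subunit of eIF2, had 2 IGF2BP2 peaks (up to 8.84) and 2 YTHDC1 peaks (up to 8.19), all under a second annotated gene. Eif2d, which encodes a tRNA-delivery factor, had a single IGF2BP2 peak of 3.94 in an intron under Rassf5. Of the 5 eIF2B genes, Eif2b2 had IGF2BP2 and YTHDC1 peaks of 3.94 and 6.87 at nt 80 and 54 of the CDS, and Eif2b5, the catalytic subunit, had separate peaks of 7.13 and 4.91. YTHDF2 had no peak in the 4 genes of eIF2, eIF2A and eIF2D or the 5 eIF2B genes. Over all genes 7.46% had a YTHDF2 summit, so its absence from so few genes says little. Among the kinases that phosphorylate eIF2 alpha, Eif2ak3 (PERK) had 3 IGF2BP2 peaks up to 6.60 and 2 YTHDC1 peaks up to 7.73. Eif2ak4 (GCN2) had an intronic peak of each of these readers, of 5.86 and 3.87. Eif2ak1 (HRI) had a single YTHDF2 peak with a pileup of 2 and a fold of 2.94, under Ankrd61. Eif2ak2 (PKR) had none. Among the eIF4E-binding proteins, Eif4ebp2 had a YTHDC1 peak of 12.8 in its 3′ UTR, 1420 nt after the stop codon. Eif4enif1, which encodes a protein that carries eIF4E into the nucleus, had IGF2BP2 and YTHDC1 peaks of 10.8 and 3.93 in exon 5 of 18, where Drg1 also lies.

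The subunit-joining GTPase gene Eif5b had 7, 4 and 4 peaks. In exon 10 of 24 the folds were 27.3, 8.52 and 34.6 and the pileups 33, 10 and 45 for IGF2BP2, YTHDF2 and YTHDC1, with the summits within 16 bp. The YTHDC1 fold is the next highest of its list among the factor genes after Eif3a. In exon 4, whose purine-rich window is printed above, the folds were 11.3, 10.9 and 15.0, with the summits within 9 bp. Eif5, which encodes the GTPase-activating protein of eIF2, had intronic IGF2BP2 and YTHDF2 peaks of 11.0 and 5.58 at summits 5 bp apart, and a YTHDC1 peak of 4.94 elsewhere. Eif6, known for keeping the ribosomal subunits apart, had a YTHDC1 peak of 9.37 in its 5′ UTR alone. Eif5a, the hypusinated factor that relieves stalled ribosomes, had 2, 2 and 3 peaks with highest folds of 6.67, 4.86 and 14.3. A YTHDF2 summit of 3.93 fell on the first base of its CDS. Eif5a2 had none.

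In the eEF1 genes 6 of 15 places had peaks of all 3 readers, and in Eef2 and Eef2k 2 of 12. Eef1a1, which encodes the tRNA-carrying eEF1A, had 4 peaks in each list. Its exon 7 place had folds of 10.4, 14.2 and 13.4, with the summits within 49 bp. Eef1b2, a nucleotide exchange subunit, had pileups of 16, 11 and 24 and folds of 16.4, 11.7 and 23.8 in exon 3 of 6. Eef1g, another eEF1 subunit, had 12.5, 7.29 and 25.8 in exon 7 of 10. Eef1d had single IGF2BP2 and YTHDF2 peaks of 8.88 and 5.93 at summits 4 nt apart. Eef2, which encodes the translocase, had 4, 5 and 3 peaks, with folds of 9.94, 17.1 and 20.3 in exon 9 of 14. Its highest IGF2BP2 fold, 17.8, was in exon 7, the window with GGAC 3 times. The kinase gene Eef2k had 4 IGF2BP2 CDS peaks of at most 5.92 and 2 YTHDC1 peaks, with no overlap between lists. Eef1a2, known as the form of muscle and neurons, and Eef1e1 had none, nor did the methyltransferase genes Eef1akmt1, Eef1akmt2, Eef1akmt3, Eef1akmt4 and Eef2kmt.

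Coding sequence was the region with the most summits in the factor genes for each reader. Where a base was UTR in one transcript and CDS in another, it was first counted as UTR. By that count CDS held 63.7% (53.6 to 73.0) of summits for IGF2BP2, 57.4% (44.8 to 69.3) for the YTHDF2 list and 45.4% (35.2 to 55.8) for the YTHDC1 list, against 51.8%, 51.4% and 29.9% over all genes. Without Eif3a the shares were 59.8% (49.0 to 69.9), 53.4% (39.9 to 66.7) and 39.8% (29.5 to 50.8). Each of these intervals includes the share over all genes. With Eif3a kept, counting bases that differ between transcripts as CDS gave 67.6%, 64.7% and 50.5%, against 59.8%, 58.4% and 33.9%. Introns held 21.6%, 17.6% and 26.8%, against 31.2%, 27.4% and 46.6%. Within the main transcript, which is the longest with a complete CDS, CDS held 66 of 72 exonic summits (91.7%) with IGF2BP2, 43 of 50 (86.0%) with YTHDF2 and 49 of 60 (81.7%) with YTHDC1. It made up 60.6%, 61.7% and 54.0% of the length of those transcripts. Over all genes the shares were 90.9%, 84.2% and 69.4%. The 3′ UTR held 5.56%, 8.0% and 10.0% of these summits and 31.6%, 29.8% and 38.0% of the length. The region around the stop codon (200 nt to each side), where m6A is known to be frequent, held 5.56%, 14% and 10.0% of exonic summits in the factor genes, against 7.20%, 11.0% and 11.1% over all genes.

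**Figure D3:**
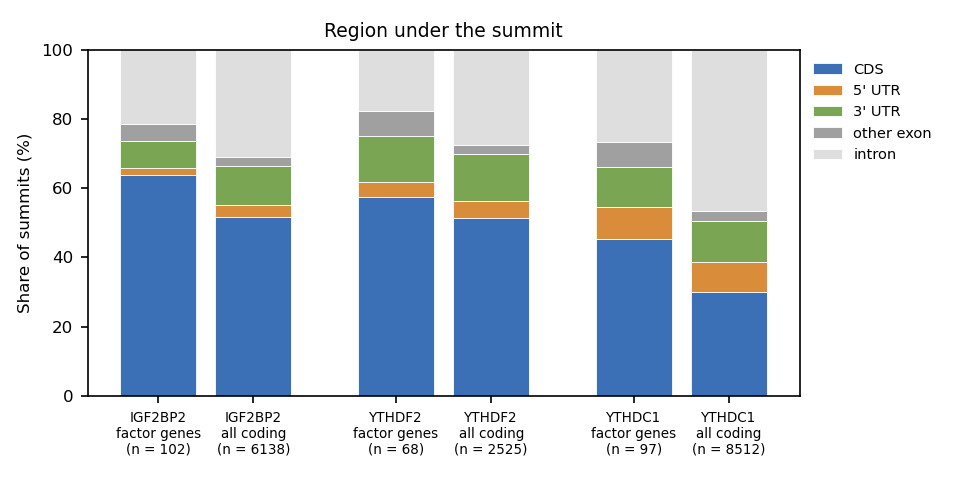
Share of summits (%) in each gene region for the factor genes and for all protein-coding genes, by reader, with UTR counted before CDS where transcripts differ. CDS is the largest class in the factor genes for every reader, and the intronic share of YTHDC1 is 26.8% in the factor genes and 46.6% in all genes.

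YTHDC1 also had summits close to gene starts. Within 500 bp of the annotated start lay 4 IGF2BP2, 2 YTHDF2 and 14 YTHDC1 summits, or 3.92%, 2.94% and 14.4% of the summits in factor genes, against 4.92%, 6.38% and 12.7% over all genes. The 14 YTHDC1 summits were in 14 different genes, among them Eif1, Eif6, Eif4a1, Eif4g2, Eif3b, Etf1 and Gspt1. The share for YTHDC1 in the factor genes, with its interval of 8.12 to 23.0, thus includes that of all genes.

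Peaks of the 3 lists often fell on the same places. Overlapping peaks were joined into 157 places, of which 42 (26.8%) had peaks of all 3 readers, 9 of IGF2BP2 and YTHDF2, 7 of IGF2BP2 and YTHDC1, and 4 of YTHDF2 and YTHDC1. Another 43 places had IGF2BP2 peaks alone, 9 had YTHDF2 and 43 had YTHDC1 peaks alone. Over all genes there were 12124 places, of which 1073 had peaks of all 3 readers. IGF2BP2 alone had 3171 of them, YTHDF2 alone 481 and YTHDC1 alone 5491. The 42 shared places lay in 20 genes, and the summits of all readers stood a median of 35 bp apart there, within 50 bp at 25 places. Among the peaks in factor genes, 41.2% of IGF2BP2, 63.2% of YTHDF2 and 44.3% of YTHDC1 peaks overlapped both other lists, against 18.3%, 45.1% and 13.4% over all genes. Those that overlapped neither made up 42.2%, 13.2% and 44.3%, against 54.1%, 20.1% and 68.5%. Peaks that overlapped both other lists were stronger in each list. Their median folds in the factor genes were 11.1, 9.22 and 13.7, while peaks that overlapped neither had 5.91, 3.92 and 6.80. Over all genes these medians were 10.8, 6.92 and 9.69, and 4.91, 3.96 and 5.89. Judged by backgrounds computed from fold and pileup, the 3 peak lists appear to share 1 background track apart from scale. If so, overlaps of lists do not come from separate controls.

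What region a place lay in differed with the readers that had it. Of the 42 places with all 3 readers, 30 (71.4%) had the strongest summit in CDS and 5 (11.9%) in an intron, against 69.6% and 21.2% of 1073 such places over all genes. Of the 43 places with IGF2BP2 alone, 29 (67.4%) were in CDS, against 59.3% over all genes. Of the 43 with YTHDC1 alone, 10 (23.3%) were in CDS, 19 (44.2%) in introns and 8 (18.6%) in the 5′ UTR, against 24.9%, 52.1% and 10.2% over all genes. These places included the 5′ UTRs of Eif1 and Eif6 and the introns of Eif4e, Eif4e2 and Eef1a1.

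The motif GGAC was counted on the mRNA strand in windows of 50 nt to each side of exonic summits. It was in 51.4% (39.3 to 63.3) of the IGF2BP2 windows in factor genes, 36.0% (22.9 to 50.8) of the YTHDF2 windows and 45% (32.1 to 58.4) of the YTHDC1 windows. All genes had 42.8%, 41.6% and 42.4%, values inside these intervals, and 35.1% of all windows of this size along the factor genes' transcripts hold GGAC. In Eif3a it was in 6 of 10 IGF2BP2, 4 of 8 YTHDF2 and 5 of 9 YTHDC1 windows, and in Pabpc1 in 3 of 5, 0 of 2 and 2 of 4. The longer motif GGACT, which overlaps GGAC, was in 16.7%, 12% and 13.3% of windows, against 11.1% along the transcripts. The purine motif GAAGAA was in 26.4%, 20.0% and 20.0%, against 10.1% along the transcripts, and in 27.8%, 24.9% and 18.5% of windows over all genes. Windows along the transcripts include the UTRs and genes without a peak, while most summit windows lie in CDS. The shares along the transcripts are therefore not of like sequence, and no comparison with CDS windows alone was made. Because many windows come from Eif3a and overlap between readers, they are not independent.

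Summit windows in CDS held more A and G than the CDS around them. Their median share in the factor genes was 60.4% with IGF2BP2, 62.4% with YTHDF2 and 64.4% with YTHDC1, against 61.4%, 60.4% and 60.4% over all genes. The whole CDS of the same factor genes had medians of 54.2%, 54.5% and 54.5%. Averaged per gene, the summit windows lay above the gene's own CDS in 23 of 25 factor genes for IGF2BP2, 17 of 19 for YTHDF2 and 19 of 23 for YTHDC1 (92.0%, 89.5% and 82.6%), against 86.0%, 83.6% and 81.7% of all genes. Eif5b had the highest values, 75.0%, 82.8% and 81.2%, beside 63.6% in its whole CDS. Eif4g3, with 54.2% in its whole CDS, lay above it for IGF2BP2 (59.5%) and below it for YTHDF2 (51.5%) and YTHDC1 (48.2%). The YTHDF2 and YTHDC1 windows in its exon 11 had 27.7% and 20.8%, the lowest for these readers in the factor genes.

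**Figure D4:**
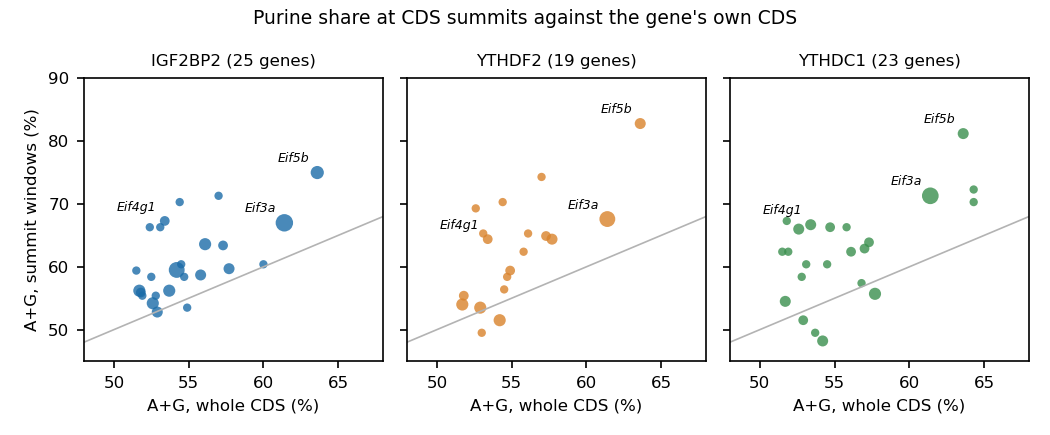
Mean share of A and G (%) within 50 nt of the CDS summits of each factor gene against the share in its whole CDS, by reader, with larger points for more summits and a line of equality. Points lie above the line in 23 of 25 genes for IGF2BP2, 17 of 19 for YTHDF2 and 19 of 23 for YTHDC1.

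Other genes of translation were counted in the same way. Of 15 genes that signal to initiation, 11 had an IGF2BP2, 3 a YTHDF2 and 9 a YTHDC1 peak, led by Pdcd4, an eIF4A inhibitor (11.3 for IGF2BP2), and Larp1, which binds mRNAs with a terminal oligopyrimidine tract (16.0 for YTHDC1). Of 11 integrated stress response genes, 4, 4 and 7 had a peak. The transcription factor gene Atf4 had 7.32 for IGF2BP2 and 7.42 for YTHDF2, and Ppp1r15a, which reverses eIF2 alpha phosphorylation, had 16.3 for YTHDC1. Of 19 genes of recycling, rescue and poly(A)-binding partners 6, 3 and 6 had a peak, with Abcf1 at 23.2 for IGF2BP2 and 14.6 for YTHDF2. Of 22 cytoplasmic aminoacyl-tRNA synthetase genes and their scaffolds, 12, 7 and 13 had a peak, with Yars at 22.2 for IGF2BP2 and Aars at 27.5 for YTHDC1. Of 9 mitochondrial translation factor genes, 0, 1 and 3 had a peak, and the highest fold was 6.03, in Gfm2 for YTHDC1. Each share may be read beside the 13.2%, 7.46% and 20.6% of all genes with a peak.

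Marker genes of cell types were also counted. Kit, Myb and Meis1 of 6 progenitor and leukaemia genes and Itgam and Csf1r of 5 granulocyte and monocyte genes had a peak in any list. Cd34, Hoxa9, Flt3, Ly6g, Mpo and Elane of these sets had none. The 2 B cell, 2 T cell and 2 erythroid marker genes had no peak either. Over all genes 24.5% had a summit of any reader, so sets of 2 genes without a peak say little. Peak lists measure bound places and not levels, so these counts say little on how much of each cell type was present.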

How the data were processed

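RNA bound by each reader was measured in 1 library per reader. The build was GRCm38 and the tools HISAT2, Trim Galore and bcl2fastq 2.17, per the submitters' processing notes, and the peak caller is not given in the sources used here. The deposited lists hold 7069 (IGF2BP2), 2834 (YTHDF2) and 9963 (YTHDC1) peaks, called by the authors for each immunoprecipitate. Per the file headers they give the pileup signal at the summit, the peak length and the fold, a ratio of pileup to local background. The deposited lists also give −log10 of p and q, and a score that, compared column by column, is the −log10 q times 10. Library totals are not in these files, so depth is unknown. Sequencing noise cannot be separated from differences between cells with 1 library each.

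Each summit was assigned to every protein-coding gene that spans it (GENCODE M21), so 25 of 267 summits also lie in another gene, and strand is unknown. Reads shared with paralogs, such as Eif4a1 and Eif4a2, or with pseudogenes cannot be traced, although 0 of the 3 pseudogenes named after a factor gene held a summit. Regions are given over all transcripts and in the longest complete coding transcript. Peaks overlap from 1 bp on. The local background was taken back from fold and pileup, with a pseudocount of 1 on both. Percent values are shares with exact intervals (scipy 1.17.1), and assignment was checked on simulated positions.

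The genes, lists and classes were chosen with earlier results of these data known. Values are given for the 10 genes with the highest fold per list, the strongest shared places, the gene with the most peaks per class, genes in 1 list, genes with a summit in a snoRNA gene or near a start or stop codon, and Pabpc1, Pabpc4, Etf1 and Gspt1. Values of Eef1d, Eif2ak4, Eif3h, Eif4g2, Eif4h and Eif5, the purine measures, the distance from the gene start and the region of shared places were added after values were seen. Alternatives were a −log10 q, a fold or a pileup of at least 5, lists of equal length, other overlap rules, other rules for regions, a 51 nt window and, added later, leaving out Eif3a.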

Additional observations from a re-analysis of the deposited data

How the results depend on the processing

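Counts were called moved beyond a ratio of 1.5 to the value reported, and the shares that moved lay outside the reported interval. Of 144 values recomputed under the alternatives, 124 were called unmoved and 20 moved. None of the 20 came from the runs without Eif3a or with a −log10 q of at least 5. Unmoved counts could still fall: with a fold of at least 5, genes in all 3 lists went from 23 to 17 and YTHDF2 peaks from 68 to 49. Some values could not move. Leaving out Eif3a takes 1 gene from each gene count, and lists of equal length leave values of the YTHDF2 list alone unchanged. Cutting every list to its 2834 peaks with the highest −log10 q, which leaves YTHDF2 as it is, moved most. There 48 IGF2BP2 and 43 YTHDC1 peaks remained in the factor genes, in 19 and 21 genes, and 12 genes had peaks of all 3 readers. The CDS share was then 77.1% for IGF2BP2 and 60.5% for YTHDC1, and the peaks shared with both other lists numbered 20 (IGF2BP2), 21 (YTHDF2) and 21 (YTHDC1). Peaks were left in 8 classes for IGF2BP2, and 17 (IGF2BP2) and 13 (YTHDC1) other genes of translation had a peak. Under a minimum fold of 5, and likewise a minimum pileup of 5, 8 other genes of translation had a YTHDF2 peak. Counting peaks as shared only with summits within 50 bp left 27, 28 and 28 peaks shared with both other lists. In 51 nt windows GGAC was in 25.0% (IGF2BP2), 26.0% (YTHDF2) and 31.7% (YTHDC1), as a shorter window holds fewer motifs. Along the whole transcripts, UTRs included, the share was 19.3%. IGF2BP2 was highest in the longer window and lowest in the shorter one. The added alternatives, such as leaving out Eif3a, were chosen after seeing the data. No paired analysis was possible because each reader has 1 library. With depth unknown, a gene with no peak cannot be told from a gene with too few reads.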
